A study of Oryza sativa with 12 samples.

Results

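Rice genotypes classed as Zn-inefficient were compared with genotypes classed as Zn-efficient while all of them received zinc. The comparison took the 3 libraries of the inefficient group (IR64, IR74 and Kinandang Patong) and the 3 of the efficient group (IR55179-3B-11-3, Nipponbare and RIL46), which is 6 of the 12 libraries of the series, and every one of the 33277 genes in the authors' deposited table. RNA came from crowns, the compact stem base that bears leaves and crown roots, after 8 days in Yoshida nutrient solution with 1.5 µM ZnSO4, bicarbonate and agar. The other 6 libraries came from the same genotypes at 0 µM ZnSO4 on day 8 and are used here only to show whether a class difference was also there without Zn. Each genotype gave 1 library per supply, so the libraries of a group are different genotypes, genotype and library cannot be told apart, and a class difference is a difference between these 3 and those 3 genotypes. The files used hold 1 value per gene and comparison, so values per library, their depth and any overlap between the groups were not analysed here.

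Rice takes up zinc through ZIP family transporters and moves it with P-type ATPases of the HMA family, and inside the plant zinc and iron travel bound to nicotianamine. Nicotianamine synthases (NAS) make this chelator, and a nicotianamine aminotransferase and a reductase turn it into deoxymugineic acid, which grass roots secrete to bring iron and zinc into solution. Zn efficiency is the ability to keep growing when zinc is scarce, and new crown roots are a known part of it in rice.

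Markers of several crown tissues were detected, at means that depend on gene length and are not ranked here. The overall means in the authors' deposited table ran from 1960 to 2933 normalized counts for the 3 root markers and from 3.20 (OSH43) to 1407 (OSH15) for the 4 meristem markers. They ran from 7.91 (RBCS, which has near-identical copies) to 1948 (CAB1R) for the 4 green leaf markers, also in the authors' deposited table. The secondary wall genes CESA9 and CESA4 had 59.7 and 1581, and the seed storage gene RAG2 had 20.3, in the authors' deposited table. Of the 14 markers measured, none passed the deposited DESeq2 test between the classes with Zn. The 3 root markers all lay below 0 (log2 −0.02, −0.32 and −0.78 for RCC3, LSI1 and LSI2 in the authors' deposited table), and of the 4 green leaf markers 3 lay above 0, with a list median of 0.14. Only OSH15, a meristem homeobox gene, had a 95% interval that left out 0, at 0.49 (interval 0.20 to 0.79, log2 inefficient over efficient). The part of tissue proportions in any result was not tested, and in bulk tissue fewer cells of a type and less RNA per cell cannot be told apart.

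With Zn supplied, very few genes passed a test between the classes after adjustment, and a gene that did not pass is not thereby shown to be equal. The deposited test asks whether a gene differs by more than 2-fold, and 3 of 32514 genes passed it at an adjusted p under 0.05 (0.00923%). All 3 were lower in the inefficient genotypes, and none was higher (0%). At an unadjusted deposited p under 0.05 there were 67 genes (0.206%), of which 50 were lower and 17 higher. A test of any difference, computed here from the same log2 values and standard errors (SE), called 22 genes (0.0677%), 6 higher and 16 lower. The same groups without Zn differed at 97 genes (0.298%) in the deposited test.

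The first called gene, OS04G0170500, encodes a protein with a CCHC-type zinc finger, a domain that binds nucleic acids. Its derived mean was 170 normalized counts in the efficient and 0.99 in the inefficient group with Zn, and 174 and 1.03 without Zn. The authors' deposited table gave a log2 of −7.43 (SE 0.88, adjusted p = 7.57e-09, DESeq2). Its counts were therefore close to 0 in the inefficient group at both supplies. The part of alignment to the reference genome in this was not tested.

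The second, OS04G0173800, is annotated as a lectin precursor or agglutinin, a sugar-binding protein. Its derived means were 254 and 3.76 normalized counts in the efficient and inefficient groups with Zn. Without Zn they were 97.7 and 6.17. The authors' deposited table gave −6.08 (SE 1.07, adjusted p = 0.0209, DESeq2) with Zn and −3.99 (SE 1.04, adjusted p = 0.773) without it, so this gene was called with Zn only. The difference between the supplies did not pass a test of its own (adjusted p = 0.949, normal test on the DESeq2 values).

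The third, OS06G0524700, belongs to a plant protein family of unknown function, DUF247. Its overall mean was 13.3 normalized counts, and the authors' deposited table gave −20.98 (SE 4.09, adjusted p = 0.0167, DESeq2) with Zn and −21.52 without it. Values of this size arise in the fit when a group is at or near 0, so they give at most the direction and no usable fold. The adjusted p rests on the same fitted value and carries the same limit, at both supplies. Of the 3 genes called with Zn, 2 were also called lower without Zn, OS04G0170500 and OS06G0524700. They are 66.7% of the genes called lower with Zn and 25% of the 8 called lower without it (0.0246% of genes tested).

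**Figure D1:**
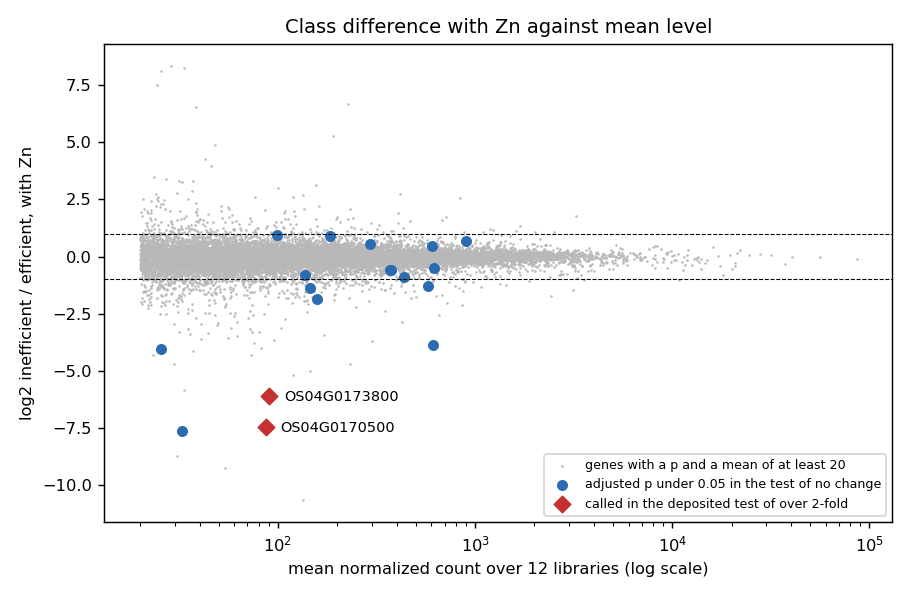
Log2 ratio of inefficient over efficient genotypes with Zn (vertical axis) against the mean normalized count over 12 libraries (horizontal axis, log scale) for genes with a p and a mean of at least 20; dashed lines mark 2-fold. The 2 called genes in this range (diamonds) lie at −6.08 and −7.43, and further genes that pass only the test of any difference (blue) lie on both sides of 0; OS06G0524700 has a mean of 13.3 and is not drawn.

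Most genes were close between the classes. A mean of 20 normalized counts or more was reached by 20385 genes, whose median log2 was −0.01 with a median SE of 0.29. For 13063 of them, 64.1%, the 95% interval lay within 2-fold of equality in both directions. The fitted difference was past 2-fold for 919 (4.51%), of which 283 were higher (1.39%) and 636 lower (3.12%) in the inefficient genotypes. Without Zn 2408 genes (11.8%) were past 2-fold. Of the 636 genes past 2-fold lower with Zn, 367 were also past 2-fold lower without Zn, which is 57.7% of the first list and 25.7% of the second. Of the 283 past 2-fold higher, 153 were so at both supplies, which is 54.1% and 15.6%. Nipponbare, whose genome build IRGSP-1.0 is named in the submitters' processing notes, is in the efficient group, and the part of alignment to that reference in the surplus of lower genes was not tested.

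The spread between the libraries of a group was wide for the genes past 2-fold. These genes were picked by fitted values from the same libraries, where a wide spread by itself favours large values. The spread was derived from the deposited SE as a coefficient of variation. Its median was 0.90 over the 844 genes past 2-fold for which it could be had, against 0.22 for the others. For 371 of the 844, 44.0%, it was above 1, so that the SD between libraries exceeded the group mean; the fit takes this spread as the same in all groups. For the 3 called genes the coefficient was 0.23 (OS04G0170500), 0.83 (OS04G0173800) and 3.32 (OS06G0524700).

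Both called genes on chromosome 4 bound a run of neighbours that all lay below 0. From OS04G0170500 to OS04G0173800, in the order of the locus identifiers and with both of these counted, 7 genes had a mean of at least 2 normalized counts. The fitted difference was past 4-fold lower in all 7 with Zn, with a median log2 of −6.18. Without Zn it was past 4-fold lower in 6 of the 7 (median −7.41). The exception was OS04G0172400, a transferase family gene, at −4.29 (SE 2.35) with Zn and −0.54 without it in the authors' deposited table. With Zn the intervals of OS04G0171800, OS04G0172100 and OS04G0172400 reached above 0, with upper ends of 0.006, 2.75 and 0.33. Those of both called genes, OS04G0172560 and OS04G0173300 lay below 0. For OS04G0172100, OS04G0172560 and OS04G0173300 the coefficient of variation was 3.46, so the SD between libraries exceeded the group mean. OS04G0171800 is similar to CYP79A1, which in sorghum opens the synthesis of a cyanogenic glucoside. Its derived means were 25.6 and 0.35 normalized counts in the efficient and inefficient groups with Zn, and 39.6 and 0.19 without. OS04G0173300, annotated in part as similar to transmembrane protein 115, had 209 normalized counts in the efficient group with Zn and a derived mean near 0 in the inefficient group. Both of these genes, and OS04G0172560, have no p in the authors' deposited table. Runs were looked for because of this stretch, after its values had been seen.

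Farther along chromosome 4, after 13 measured genes of which 4 were past 2-fold lower and 1 higher, lies the momilactone gene cluster. Momilactones are diterpenes that rice makes against fungi and neighbouring plants. Of the 5 genes measured from OS04G0178300 to OS04G0179700, 4 were past 2-fold lower with Zn and none without it, where 1 was past 2-fold higher. CYP99A2, a cluster gene beyond that stretch, was at 0.02 (SE 1.58) with Zn in the authors' deposited table. On chromosome 7, the stretch from OS07G0122000 to OS07G0137000 held 63 measured genes, of which 17 were past 2-fold lower and 5 higher. Its ends were set at lower genes after their values were seen, so these counts describe the stretch and are not set against other genes. It includes OS07G0122000, of unknown function, with derived means of 69.5 and 0.36 normalized counts in the efficient and inefficient groups with Zn. It also includes OS07G0125500, an allergen V5/Tpx-1 family gene related to PR1, with 106 and 10.4. These lower genes lie among others near 0, such as OS07G0124500, similar to a translation initiation factor, at 0.03 (SE 0.11) in the authors' deposited table.

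**Figure D2:**
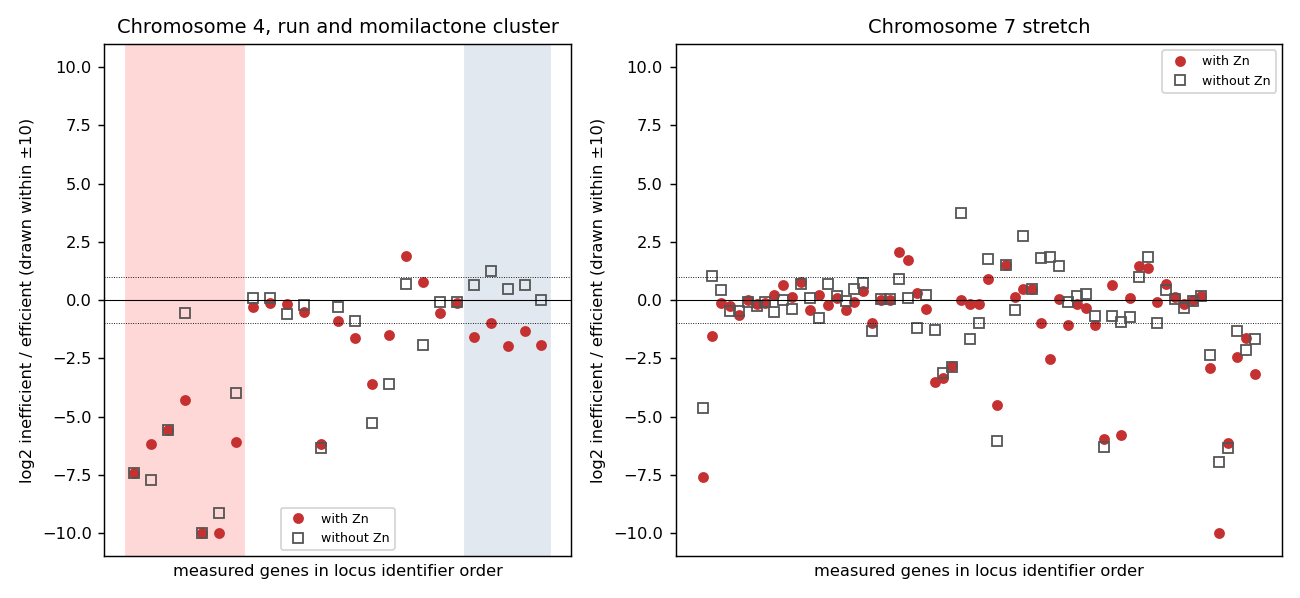
Log2 ratio of inefficient over efficient genotypes (vertical axis, values beyond 10 drawn at 10) for consecutive measured genes in identifier order, with Zn (red points) and without Zn (open squares), on chromosome 4 (left) and chromosome 7 (right). The 7 genes of the run (pink) all lie below −4 with Zn, and the 5 of the momilactone cluster up to OS04G0179700 (grey-blue) lie below 0 with Zn and above 0 without it.

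Across the genome, 29 runs of at least 3 consecutive genes past 4-fold were found, 25 of them lower and 4 higher in the inefficient genotypes, where 26503 genes had a mean of 2 or more and 1027 of these were past 4-fold. No run of called genes was found. Of the 29 runs, 12 had every member past 4-fold in the same direction without Zn too. After the run above, the longest lower runs had 5 genes each and lay on chromosomes 4, 5, 11, 11 and 12. The run OS05G0546800 to OS05G0547800 on chromosome 5 held 4 genes whose fitted values lay below −23, which again marks a group at or near 0. These 4 genes have no p and a coefficient of variation of 3.46, so the SD between libraries exceeded the group mean. The longest higher run had 4 genes, OS02G0163300 to OS02G0163533 on chromosome 2, with a median log2 of 4.87 with Zn and 2.38 without. Its 4 genes also have no p and a coefficient of variation of 3.46, so the SD between libraries exceeded the group mean. With Zn all their intervals reached below 0, with lower ends from −4.48 to −2.62, so the direction of this run is not settled.

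Some genes were near silent in 1 class at both supplies, with a derived mean under 1 normalized count there and of at least 20 in the other class. There were 40 such genes in the inefficient and 7 in the efficient group. The part of alignment to the reference genome, that of a genotype in the efficient group, was not tested. No p was given for 34 of the 40, 85.0%, whereas this was so for 2.47% of all genes with a mean of at least 20. Those with a p numbered 6 in the inefficient and 5 in the efficient group. The derived spread was at the upper limit of the fit for 24 of the 40 and 2 of the 7. OS08G0255500, similar to the brassinosteroid co-receptor BAK1, had derived means of 115 and 0.35 normalized counts in the efficient and inefficient groups with Zn. OS10G0204300, similar to phosphoenolpyruvate carboxykinase, had 157 and 0.35. Both have no p and a coefficient of variation of 3.46, at that limit, so the SD between libraries exceeded the group mean. In the other direction OS09G0327575, similar to the blast resistance gene Pi5-1, had 0.18 in the efficient and 53.3 in the inefficient group with Zn, and 0.35 and 80.4 without. The authors' deposited table gave 8.22 (SE 2.04) for it with Zn, which did not pass the test of over 2-fold.

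The test of any difference reached genes with small and even differences. The brassinosteroid-signalling gene OS02G0233200, similar to Brassinazole-resistant 1, had derived means of 80.8 and 155 normalized counts in the efficient and inefficient groups with Zn. Its log2 was 0.94 (SE 0.22, adjusted p = 0.0460 from the DESeq2 values) with Zn and −0.41 without it, and the difference between the supplies passed its test (adjusted p = 0.00568, DESeq2 values). The thioredoxin h gene OS07G0190800, a cytosolic redox protein, had 462 and 249, a log2 of −0.89 (SE 0.21, adjusted p = 0.0272, DESeq2 values) with Zn and 0.67 without it. The protein kinase gene OS05G0560300 had 281 and 185, with a log2 of −0.61 (SE 0.13, adjusted p = 0.0123, DESeq2 values). These 3 genes thus lay on opposite sides of 0 at the 2 supplies.

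Others kept their side. OS12G0100100, similar to ALY, an adaptor of mRNA export, had derived means of 289 and 79.8 normalized counts in the efficient and inefficient groups with Zn and 216 and 48.7 without, a log2 of −1.86 (SE 0.35, adjusted p = 0.000841, DESeq2 values). OS01G0120300, similar to a leucine-tRNA ligase, had 1150 and 80.0 with Zn and 1078 and 135 without, a log2 of −3.85 (SE 0.88, adjusted p = 0.0243, DESeq2 values). OS06G0632200, similar to a tryptophan synthase, had 398 and 162 with Zn, a log2 of −1.30 (SE 0.25, adjusted p = 0.00101, DESeq2 values). Among the higher genes OS11G0233800, related to serine/threonine kinases, had 788 and 1259, a log2 of 0.68 (SE 0.16, adjusted p = 0.0460, DESeq2 values). Some high ratios were wide in error and passed neither test. The authors' deposited table gave 6.67 (SE 1.83) for OS02G0599500, similar to an iron-stress related protein, and 4.89 (SE 1.19) for OS03G0663100, a PDZ domain gene.

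Of 135 listed loci of zinc, defence, growth and tissue markers, 126 were measured and 125 had a p. None of the 125 was called by the deposited DESeq2 test or by the test of any difference after adjustment. At an unadjusted p under 0.05 there was 1 in the deposited test, NAS2, and 16 in the test of any difference, 3 higher and 13 lower, which is 12.8% against 3.34% of all genes (2.01% lower and 1.33% higher). The lists were chosen with earlier results of these data known.

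No listed zinc or metal transporter passed the DESeq2 test when zinc was supplied. Of 20 members of the zinc and metal transport list with a p, 6 lay above and 14 below 0, with a median log2 of −0.10 beside 0.00 for all genes tested, and for 10 the 95% interval lay within 2-fold. HMA2, which loads zinc into the vascular stream, had derived means of 372 and 368 normalized counts in the efficient and inefficient groups, with an interval of −0.36 to 0.33. The copper pump HMA4 had 2465 and 2515 (interval −0.30 to 0.36) and the vacuolar zinc transporter MTP1 436 and 474 (interval −0.26 to 0.50). These 3 intervals leave out a 1.5-fold difference in either direction. IRT2 has no p.

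The ZIP genes known to respond to zinc supply did not pass either, and their intervals were wider. ZIP4 had derived means of 84.0 and 114 normalized counts (interval −0.12 to 1.00), ZIP5 122 and 108 (−0.96 to 0.63), and ZIP8 325 and 360 (−0.60 to 0.89). ZIP9 had 124 and 80.0 (−1.40 to 0.13), ZIP1 264 and 175 (−1.33 to 0.14), and ZIP7 604 and 514 (−1.86 to 1.39). HMA3, which stores cadmium in root vacuoles, had 62.6 and 36.2 (−1.58 to 0.01). The iron transporter IRT1, at 37.3 and 12.3, was the only list member with a p whose interval left out 0 (−2.84 to −0.35), and its log2 was −1.60 (SE 0.64) in the authors' deposited table. HMA1, a chloroplast metal ATPase, was at −0.09 (SE 0.18) with Zn and 0.95 without Zn in the authors' deposited table.

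No gene that makes or carries nicotianamine passed the DESeq2 test with Zn. In the list of nicotianamine, mugineic acid and iron, 9 of 11 members had values below 0, 2 (NAS3 and YSL2) above 0, and the median log2 was −1.05. At an unadjusted p under 0.05 in the test of any difference, 5 were lower and 1 higher. The nicotianamine synthase NAS2 had derived means of 300.1 and 55.2 normalized counts in the efficient and inefficient groups with Zn and 179 and 24.2 without. The authors' deposited table gave −2.44 (SE 0.66) for it with Zn and −2.89 without. Its neighbour NAS1 had 321 and 85.5 with Zn, at −1.91 (SE 0.81) in the authors' deposited table. NAS1 and NAS2 are near-identical tandem copies, and reads may be split between them. NAS3, another synthase on another chromosome, had similar means, 4012 and 4922 normalized counts (interval −0.10 to 0.69).

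The enzymes that act after nicotianamine lay on opposite sides of 0 at the 2 supplies. NAAT1, the aminotransferase, had derived means of 310 and 114 normalized counts in the efficient and inefficient groups with Zn and 3436 and 8644 without. Its log2 was −1.45 (SE 0.43) with Zn and 1.33 without Zn in the authors' deposited table. DMAS1, the deoxymugineic acid synthase, had 68.1 and 29.8 with Zn and 85.1 and 179 without, at −1.19 (SE 0.44) and 1.07 in the authors' deposited table. For both, the difference between the supplies passed its test (adjusted p = 0.00116 for NAAT1 and 0.0204 for DMAS1, normal test on the DESeq2 values). The nicotianamine exporter ENA1 was at −1.12 (SE 0.47) and IRO2, a bHLH regulator of iron acquisition, at −0.34 (SE 0.47) in the authors' deposited table. YSL2, a carrier of metal-nicotianamine complexes, lay the other way, with 65.8 and 277 normalized counts and a log2 of 2.07 (SE 0.83) in the authors' deposited table, against 0.05 without Zn.

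**Figure D3:**
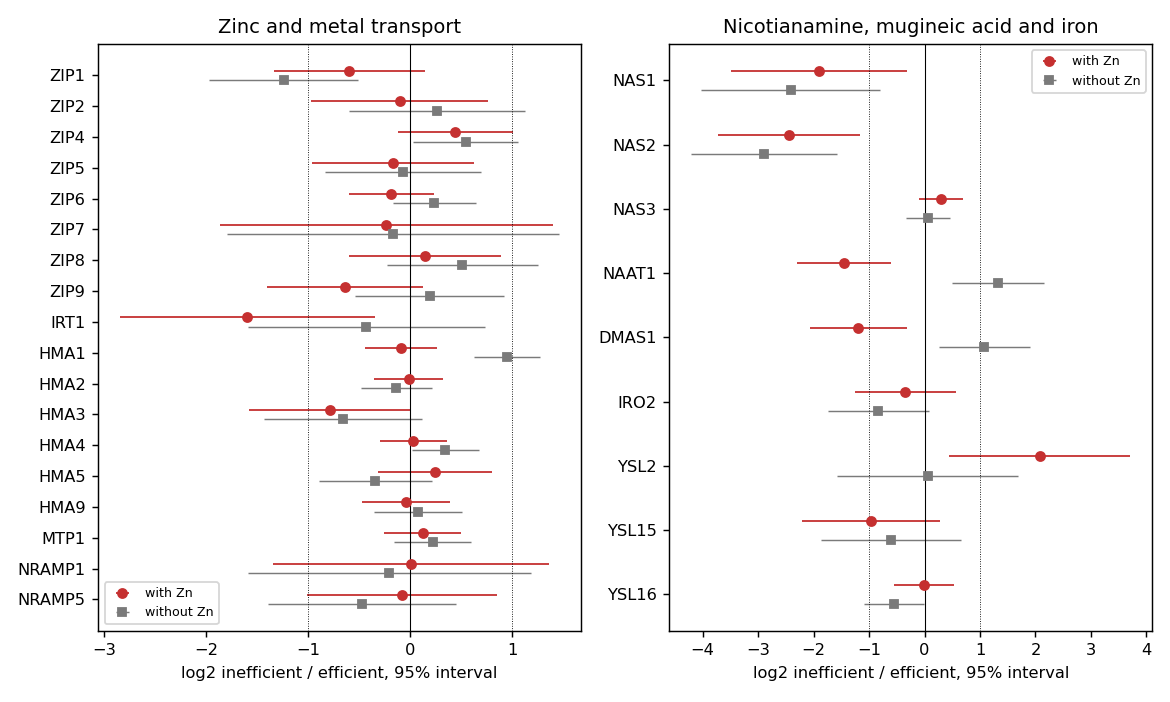
Log2 ratio of inefficient over efficient genotypes with its 95% interval for list members with a mean of at least 20, with Zn (red) and without Zn (grey); dotted lines mark 2-fold. With Zn, IRT1 lies at −1.60, and the intervals of the other zinc and metal transport genes drawn include 0. NAS1 and NAS2 lie below 0 at both supplies, and NAAT1 and DMAS1 lie at −1.45 and −1.19 with Zn but above 0 without it.

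No listed gene of phytoalexin synthesis passed the deposited DESeq2 test with Zn. Of the 9 list members in the momilactone and phytocassane clusters, 8 had values below 0 with Zn (median −1.41, CYP99A2 at 0.02) and all 9 above 0 without (median 1.25). None passed the test of the difference between supplies alone. CPS4, the syn-copalyl diphosphate synthase that commits precursors to momilactones, had derived means of 455 and 151 normalized counts with Zn and 370 and 576 without. Its log2 with Zn was −1.60 (SE 0.67) in the authors' deposited table. KSL7, a diterpene synthase of phytocassanes, had 294 and 115 with Zn and 178 and 902 without (adjusted p = 0.0548 for the difference, normal test on the DESeq2 values). OS06G0569500, an ent-kaurene oxidase annotated for diterpenoid phytoalexins but not on the list, had −1.80 (SE 0.76) with Zn and 2.39 without in the authors' deposited table. CYP99A2 and CYP99A3 are close copies, and reads may be split between them.

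No defence regulator passed the DESeq2 test with Zn. Of 12 list members, 9 lay below 0, with a median log2 of −0.53. WRKY45, a transcription factor of salicylic acid-type resistance, had derived means of 149 and 161 normalized counts in the efficient and inefficient groups with Zn (interval −0.56 to 0.78) and 380 and 3876 without. The PR10 gene PBZ1 had 787 and 366 with Zn, and the authors' deposited table gave −1.10 (SE 0.69). Its neighbour OS12G0555200, for which the symbol RSOsPR10 is uncertain, had 331 and 134, with −1.31 (SE 0.61) in the authors' deposited table. NH1, the rice NPR1 homologue and salicylic acid co-receptor, had 119 and 75.3 (interval −1.26 to −0.07). PR1a, a marker of pathogen response, had 361 and 395 (interval −0.62 to 0.88). The PR10 genes are tandem copies and share sequence.

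Families annotated for recognition and chemical defence ranged widely in their share of genes past 2-fold, beside 4.51% of all genes that reached a mean of 20. Receptor-like and wall-associated kinases, with 264 genes, had 4.17%, and protease inhibitors 4.00%. Among 168 NB-ARC genes, the intracellular receptors of plant immunity, 6 were past 2-fold higher and 27 lower, 19.6% of the family. Of these, 14 were lower and 4 higher at both supplies. Errors were larger here too, with a median SE of 0.60 and a median coefficient of variation of 0.47. OS12G0467300 was at −1.80 (SE 0.66) and OS11G0226800 at 1.40 (SE 0.50), by the authors' deposited table, which called neither. The families are sets of product descriptions, members of a family often lie side by side, and shares carry no test.

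Lectin genes had 10 of 56 past 2-fold, all lower (17.9%), and 6 of them were so without Zn as well. They include the called agglutinin OS04G0173800. OS07G0129900, a lectin-like receptor kinase gene, lay at −2.52 (SE 0.79) with Zn and 1.84 without in the authors' deposited table. Where the mean was 50 or more the lectin share was 7.14%, beside 2.94% of all genes. Cytochrome P450 genes had 14 of 111 past 2-fold, all lower (12.6%), led by OS10G0513900 at −2.46 (SE 0.66) in the authors' deposited table. Of 13 genes that the product descriptions place in the terpene synthase set, 5 were past 2-fold lower. Among them were CPS2 and KSL7, and also OS06G0569500, which is annotated as an ent-kaurene oxidase and not as a synthase. WRKY genes had 5 of 64, all lower. Transposon-related genes had 15.3% past 2-fold, with 5 higher and 4 lower.

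Several housekeeping, regulatory and growth families had few genes past 2-fold. Ribosomal protein genes had 3 of 311 past 2-fold (0.965%), heat shock and chaperone genes 3 of 192 and zinc finger genes 9 of 509 (1.77%). No NAC, histone or photosystem gene with a mean of at least 20 was past 2-fold with Zn. Without Zn 17 of the 48 histone genes were past 2-fold lower and 7 of the 38 NAC genes higher. Other growth families had larger shares with Zn. Of 68 pectin enzyme genes 3 were past 2-fold higher and 3 lower (8.82%), and of 15 aquaporin genes 2 were lower. Expansin and xyloglucan genes had 3.85%.

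**Figure D4:**
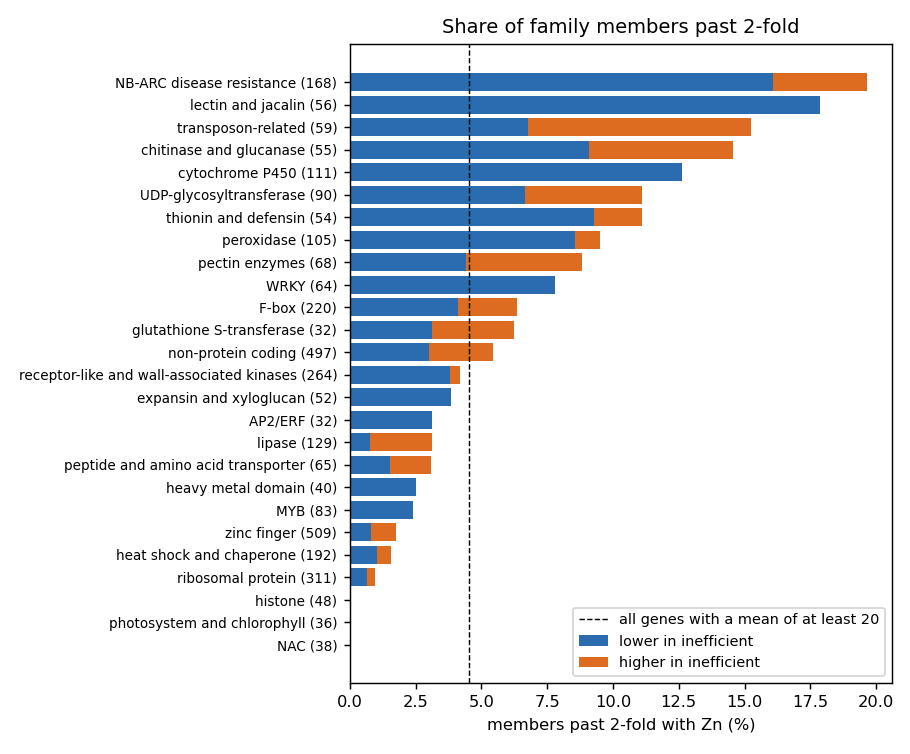
Share of the members of each product family (number with a mean of at least 20 in brackets) whose fitted class difference with Zn is past 2-fold, lower (blue) or higher (orange) in the inefficient genotypes; families with fewer than 30 members are left out. NB-ARC genes reach 19.6% and ribosomal protein genes 0.965%, beside 4.51% of all genes (dashed line).

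Growth and nutrient lists showed no called member with Zn. All 5 cell division genes lay above 0 with Zn (median 0.27) and below 0 without (median −1.24). The replication clamp PCNA had derived means of 1121 and 1351 normalized counts in the efficient and inefficient groups with Zn and 445 and 292 without. In the crown root list 4 of 6 lay above 0. CRL5, an AP2-type regulator of crown root initiation, had 38.4 and 126 with Zn and 30.2 and 31.8 without, at 1.72 (SE 0.71) with Zn in the authors' deposited table. The crown root regulator WOX11 had 122 and 114 (interval −0.70 to 0.51). The gibberellin list had a median of −0.01, and the repressor SLR1 had 5399 and 5407 (interval −0.33 to 0.34). SD1, the semi-dwarf gene that encodes a gibberellin oxidase, had 189 and 186 (interval −0.80 to 0.76).

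In the strigolactone and tillering list 5 of 11 lay above 0, and the receptor D14 had 2086 and 1237 normalized counts (interval −1.41 to −0.09). All 7 low oxygen genes lay above 0, between 0.06 and 0.47, and no interval left out 0. The 8 flowering genes with a p were split 4 to 4. The sodium, nitrate and phosphate list had 7 of 8 below 0, with the phosphate transporter PT1 at −0.40 (SE 0.18) with Zn and 1.03 without in the authors' deposited table. In the superoxide and metallothionein list 5 of 8 intervals lay within 2-fold. The narrowest was that of cCuZnSOD1, a cytosolic copper/zinc superoxide dismutase, at 3347 and 3512 normalized counts (interval −0.07 to 0.21).

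Genes called without Zn kept their side with Zn more often among the lower than among the higher ones. They were picked by their values without Zn, which by itself favours smaller differences with Zn. Of the 89 genes called higher in inefficient genotypes without Zn (0.274%), 33 lay above 0 with Zn, beside 14872 of 32514 genes tested. The median log2 of the 89 was 3.92 without and −0.27 with Zn, and values with Zn ran from −3.16 to 5.08. Of the 89, 10 were past 2-fold higher and 20 past 2-fold lower with Zn. Among all genes with a mean of at least 20 these shares were 1.39% and 3.12%. OS03G0663100, the PDZ domain gene, was among those past 2-fold at both supplies, with derived means of 3.21 and 95.2 normalized counts with Zn and 0.65 and 92.3 without. Of the 8 genes called lower without Zn, 6 were past 2-fold lower with Zn as well. The other two were OS02G0285300, a plasma membrane polypeptide of the DREPP family, at 0.45 with Zn, and OS09G0414900, similar to GASA5, at 0.01, both in the authors' deposited table.

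**Figure D5:**
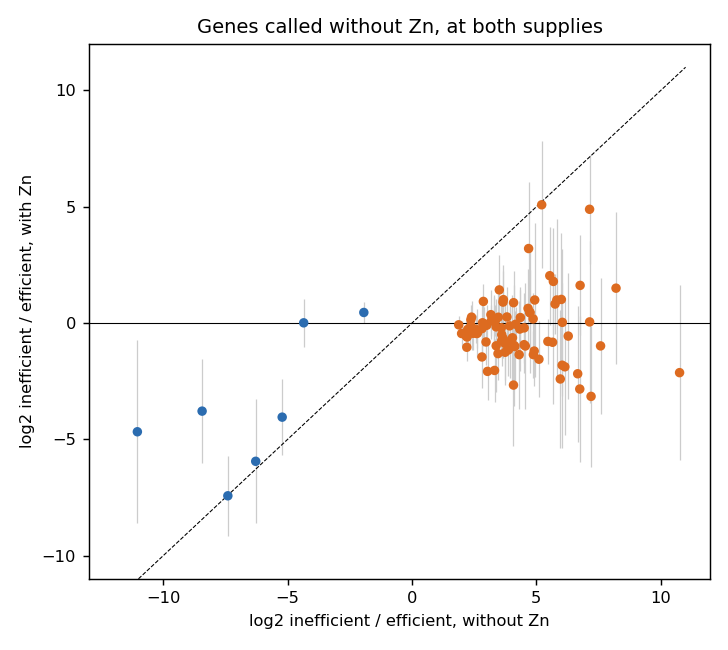
Log2 ratio of inefficient over efficient genotypes without Zn (horizontal axis) and with Zn (vertical axis, bars are 95% intervals) for the 97 genes called without Zn, higher in orange and lower in blue; OS06G0524700, at −21.52 and −20.98, lies outside the axes. The higher genes lie on both sides of 0 with Zn (median −0.27), and most of the lower genes lie below 0 at both supplies.

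A test of the difference itself gave 491 genes (1.51% of those tested) whose class difference with Zn was not that without Zn, 340 of them with the lower value with Zn (1.05%) and 151 with the higher. This difference equals, by construction, that between the Zn responses of the classes. The gibberellin-regulated gene OS04G0465300 was at 0.85 (SE 0.27) with Zn and −1.31 without in the authors' deposited table. OS09G0444900, annotated as a plant viral-response family gene, lay at −1.36 (SE 0.51) and 4.88 in the authors' deposited table. The 2 comparisons share no library but share their genotypes, and the normal test treats them as independent.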

How the data were processed

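The series holds 12 RNA-seq libraries of rice crowns, and the results rest on the authors' deposited comparison tables, 1 row per gene. The submitters' processing notes list quality checks and trimming (FastQC 0.11.5, Trimmomatic 0.36), and, for alignment, counting and testing, HISAT2 2.0.4, Subread 1.5.0-p3 with featureCounts, and DESeq2 1.12.3, on build IRGSP-1.0. Per the file headers, the deposited signal is a mean normalized count over libraries, and the other columns are a log2 fold change with its standard error, a score and p-values before and after adjustment. To make the deposited score, 1 is taken off the absolute log2 value before division by the standard error, so the authors' p-value tests a change beyond 2-fold. It is missing for 763 genes.

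Groups came from the labels. From the tables were computed 95% intervals (1.96 SE), a two-sided normal test of no change and one of the difference between supplies (both Benjamini-Hochberg over 32514 genes), and group means, which assume that the overall mean weighs 4 groups alike and are given where the 4 contrasts closed within 0.01. The coefficient of variation was derived from the SE, for groups with a mean of at least 5. The p-values measure spread between genotypes of 1 library each. Levels were not ranked between genes, as no lengths were used. Chromosome and order were read from locus identifiers. Sequences and coordinates were not used here.

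The comparison, lists, families and tests were chosen with earlier results of these data known. Named genes are those the deposited test called, all list members it called, 12 genes taken whatever their values (IRO2, NAS3, NAS2, NAS1, HMA2, HMA3, ZIP1, ZIP4, ZIP5, ZIP7, ZIP8, ZIP9), and others chosen after their values were seen. Scripts were tested on simulated data. Scripts ran in Python 3.11.15 with scipy 1.17.1, numpy 2.4.6, pandas 2.3.3 and, for plots, matplotlib 3.10.9.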

Additional observations from a re-analysis of the deposited data

Results flagged for a closer look

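A test of the difference between the supplies passed for 7 of the 125 list genes with a p. Each had a lower class difference (log2 inefficient over efficient) with Zn than without. The difference, with minus without Zn, was −2.78 (SE 0.60) for NAAT1, −2.27 (SE 0.61) for DMAS1 and −1.04 (SE 0.24) for the metal ATPase HMA1. It was −3.24 (SE 0.48) for WRKY45, −3.47 (SE 0.86) for the PR10 gene OS12G0555200 (the symbol RSOsPR10 is uncertain) and −1.43 (SE 0.26) for the phosphate transporter PT1. It was −4.05 (SE 0.77) for MT4, a metallothionein gene whose symbol is uncertain. Over all genes the test passed for 491 of 32514 (1.51%). The class difference was lower with Zn than without for 340 of these (1.05% of genes tested) and higher for 151. The lists were chosen with earlier results of these data known.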

How the results depend on the processing

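Of 81 recomputed values 64 kept their direction and their side of the threshold, or moved by less than 1.5 times. These 64 include the log2 values of named genes under the test of no change, which cannot alter them. They also include the same values centred on the median, a small shift common to all genes. Neither kind could move much, so the 64 overstate how far the results hold under other settings. With Zn, the 3 lower calls became 1 at an adjusted p under 0.01, 16 in the test of no change and 13 in that test at a mean of 20 or more, and the 0 higher calls became 6 in both of the latter. The shared lower calls went from 2 to 1 and family members called from 2 to 1 at 0.01. Genes near silent in inefficient genotypes went from 40 to 23 with at least 50 counts in the other class, to 124 with contrasts closing within 0.1 and to 6 with a p only. In efficient genotypes 7 became 3 and 11 under the first pair of changes. Runs past 4-fold went from 29 to 6 at a mean of at least 20, to 12 for genes with a p only and to 12 for those past 4-fold without Zn too. The share of zinc finger genes past 2-fold was 0.691% at a mean of at least 50. The cause was not tested.

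Some alternatives, on runs, families, near silence and the test of no change over higher genes, were chosen after seeing the data. Wider standard errors were not run for the class difference with Zn, because the robust spread of its statistic was 0.86, under 1. No paired analysis was possible because the groups hold different genotypes and the tables used hold no values per library. For that reason leaving out a library and another scaling were not run. Depth per library is unknown, and genes with a mean under 20 are weakly measured.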

Other observations

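Genes past 2-fold with Zn were spread unevenly over the chromosomes. At a mean of 20 normalized counts or more, their share was 8.62% on chromosome 11 and 7.04% on chromosome 12, against 2.73% on chromosome 3 and 2.77% on chromosome 2. Chromosomes 11 and 12 hold 41 and 28 of the NB-ARC immune receptor genes, and without that family the shares were 7.91% and 6.50%. Of the 67 genes with an unadjusted deposited p under 0.05, 14 of 2612 tested genes lie on chromosome 4 (13 lower in the inefficient genotypes) and 9 of 2275 on chromosome 7 (8 lower), beside 67 of 32514 over all (0.206%). These shares carry no test, since neighbouring genes are linked within a genotype.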
